A study of Mus musculus with 33 samples.

Results

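Lcn2, Pnmt, Ptprf, Arl4d and Odf3l2 are 5 of the 23420 genes counted in mouse quadriceps muscle, and all 5 were among the 13955 genes that passed the filter on low counts. They were chosen by name because their RNA rose very strongly after dexamethasone in these same libraries. The rises, their change from 3 h to 24 h and the difference of the rises between genotypes are therefore given as descriptions with standard errors and without tests. Tests are given for levels between genotypes within 1 treatment, for saline libraries between the times, and for the spread among libraries of a group. The levels come from the same libraries as the rises, so the tests of levels are not independent of the choice.

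The 33 libraries came from adult male C57BL6 mice, 17 WT and 16 KO, the latter null for Actn3, which encodes alpha-actinin-3, an actin crosslinker of fast muscle fibres. Mice received either saline or dexamethasone sodium phosphate (20 mg/kg), a synthetic form of the adrenal glucocorticoids, as 1 bolus into the peritoneum, and the muscle was collected 3 h or 24 h afterwards. Dexamethasone groups held 5 libraries in each genotype at each time. Saline groups held 3 libraries for WT at 3 h, 3 for KO at 3 h, 4 for WT at 24 h and 3 for KO at 24 h. Each time had its own saline controls. The labels say no more of the null allele than that the mice lack Actn3, and the hormone was given to the whole animal. The median library had 29.9 M reads assigned to genes, the shallowest 19.7 M and the deepest 42.8 M. Actn3 stood between 6959 and 9703 counts per 1 M gene counts (CPM, with TMM-scaled totals) in WT libraries and between 31.9 and 84.1 CPM in KO libraries, so every library matched its genotype label. The 12 skeletal muscle markers summed to between 144456 and 227302 CPM in each library. The tissue holds many cell types, and fewer cells of a type and less RNA per cell cannot be told apart in such libraries.

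Glucocorticoids act through the glucocorticoid receptor, a nuclear receptor that binds DNA on hormone binding and switches target genes on or off, and in skeletal muscle they shift metabolism toward protein breakdown and damp inflammation. Lcn2 encodes lipocalin 2, a secreted protein that binds iron-loaded siderophores and belongs to the acute phase response. Pnmt encodes phenylethanolamine N-methyltransferase, the enzyme that makes adrenaline from noradrenaline and is known from the adrenal medulla as a gene that needs glucocorticoids. Ptprf encodes LAR, a receptor-type tyrosine phosphatase of the cell surface that is known to act on insulin receptor signalling. Arl4d encodes a small GTPase of the ARF-like family that recruits cytohesins, the activators of Arf6, to the plasma membrane. Odf3l2 is named as a relative of the outer dense fibre proteins of sperm tails, and its role in muscle is not described here.

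The genes lie at separate loci. In the GRCm38 build with GENCODE vM21 gene models, which matches the mm10 genome named by the submitters, Lcn2 spans chr2:32384633-32388252 on the minus strand with 2623 exon bases. Pnmt spans chr11:98386450-98388181 on the plus strand with 1154 exon bases. Ptprf spans chr4:118208213-118291405 on the minus strand with 9148 exon bases. Arl4d spans chr11:101665541-101667832 on the plus strand with 1382 exon bases. Odf3l2 spans chr10:79639526-79645738 on the minus strand with 1248 exon bases. All 5 are protein coding, and none shares exon bases with another gene of these models. RefSeq also places Mir7226, Gm40235 and Gm52705 over Ptprf, and these are not among the genes counted. The annotation behind the deposited counts is not given.

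Promoter sequences were at hand for 3 of the 5 genes, Lcn2 and Ptprf, which stayed high, and Arl4d, which returned. They were taken from RefSeq (GRCm38.p6), each from 250 bases before to 50 bases after the annotated start. The promoter set used held no sequence of Pnmt or Odf3l2, which are named only. The windows are chr2:32387690-32387989 on the minus strand, chr4:118291348-118291647 on the minus strand and chr11:101665291-101665590 on the plus strand, each written 5′ to 3′ along its gene, and capitals mark a match to the C/EBP motif TTGCNNAA.
Lcn2: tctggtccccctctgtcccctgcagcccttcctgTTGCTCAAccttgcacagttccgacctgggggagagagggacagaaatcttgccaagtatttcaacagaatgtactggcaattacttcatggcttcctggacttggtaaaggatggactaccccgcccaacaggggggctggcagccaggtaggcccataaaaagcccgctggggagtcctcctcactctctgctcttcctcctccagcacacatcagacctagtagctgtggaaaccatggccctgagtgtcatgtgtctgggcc
Ptprf: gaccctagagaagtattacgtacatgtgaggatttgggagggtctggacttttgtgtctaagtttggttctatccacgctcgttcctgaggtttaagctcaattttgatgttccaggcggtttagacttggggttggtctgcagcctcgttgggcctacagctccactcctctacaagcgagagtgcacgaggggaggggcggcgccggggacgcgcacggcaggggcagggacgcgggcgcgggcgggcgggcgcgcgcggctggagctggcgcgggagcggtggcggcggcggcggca
Arl4d: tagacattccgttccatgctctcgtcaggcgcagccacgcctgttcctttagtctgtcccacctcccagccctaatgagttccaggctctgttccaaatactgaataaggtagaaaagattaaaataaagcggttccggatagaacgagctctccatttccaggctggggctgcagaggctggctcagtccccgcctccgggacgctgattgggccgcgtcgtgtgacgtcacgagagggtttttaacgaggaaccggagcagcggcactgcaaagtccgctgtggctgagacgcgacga

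In these windows 7 motifs were searched on both strands with exact letters. The core of the glucocorticoid receptor palindrome, GNACA and TGTNC separated by 3 bases, had no match in the 3 promoters and occurs in 0.475% of all 32851 promoters of that length. Its single arm, written TGTTCT, also had no match and occurs in 19% of promoters. The Lcn2 promoter held the only match, TTGCTCAA from base -216 to base -209 relative to the start, and this C/EBP motif occurs in 10.8% of promoters. TATAAA (13.6% of promoters), the NF-kB motif GGGAN directly followed by TTTCC (0.411%), the E-box CACGTG (7.15%) and the Egr1 motif GCGGGGGCG (2.91%) had no match in the 3 windows. None of these motifs contains another of the 7. A match or its lack describes these exact letters in these windows, and near matches were not searched. RefSeq and GENCODE place the start of Lcn2 differently, and the Lcn2 window lies within the GENCODE span of the gene. A window set by the GENCODE start was not searched.

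The 5 genes fell into a group that stayed high and a group that came back close to saline. Lcn2, Pnmt and Ptprf were higher in every dexamethasone library than in every saline library, at 3 h and at 24 h and in both genotypes. Arl4d and Odf3l2 were far above saline at 3 h and in or near the saline range at 24 h. Odf3l2 in KO at 24 h was still above every KO saline library of that time.

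Lcn2, the secreted siderophore-binding lipocalin, stood at 0.72, 0.55 and 0.99 CPM in WT saline libraries at 3 h and at 22.3, 56.3, 21.99, 20.5 and 45.6 CPM in WT dexamethasone libraries. In KO at 3 h the saline libraries held 0.72, 0.42 and 0.54 CPM and the dexamethasone libraries 16.4, 22.1, 20.4, 52.4 and 25.9 CPM. The lowest dexamethasone library lay far above the highest saline library, and 2 WT libraries and 1 KO library stood above the rest of their groups. At 24 h WT saline libraries held 1.26, 3.22, 1.37 and 2.23 CPM and WT dexamethasone libraries 99.6, 53.4, 43.2, 51.7 and 95.5 CPM. KO saline libraries at 24 h held 1.66, 0.39 and 1.62 CPM and KO dexamethasone libraries 61.7, 66.3, 101, 61.2 and 58.0 CPM. Every KO dexamethasone library at 24 h was above every KO dexamethasone library at 3 h, whereas in WT the ranges of the 2 times overlapped. The rise was 43.8-fold in WT at 3 h (log2 5.45 ± 0.575 SE) and 48.8-fold in KO at 3 h (log2 5.61 ± 0.584 SE). At 24 h it was 34.1-fold in WT (log2 5.09 ± 0.452 SE) and 56.0-fold in KO (log2 5.81 ± 0.553 SE). Of all tested genes ordered by log2 rise, at 3 h Lcn2 stood 8 in WT and 6 in KO, and at 24 h it stood 2 in WT and 3 in KO.

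Pnmt, the adrenaline-forming enzyme, was close to the floor of detection in saline libraries, with raw counts between 5 and 44. WT saline libraries at 3 h held 0.48, 0.21 and 0.31 CPM and WT dexamethasone libraries 4.35, 5.72, 10.2, 8.21 and 15.4 CPM. Controls of KO at 3 h held 0.33, 0.26 and 0.25 CPM and KO dexamethasone libraries 4.83, 4.05, 2.81, 11.01 and 6.83 CPM. Saline and dexamethasone libraries did not overlap, and the dexamethasone libraries spread widely. At 24 h WT saline libraries held 0.32, 0.93, 0.33 and 2.005 CPM and WT dexamethasone libraries 8.84, 4.78, 5.66, 2.91 and 7.78 CPM. In KO the saline libraries at 24 h held 0.25, 0.22 and 0.81 CPM and KO dexamethasone libraries 5.46, 5.01, 4.08, 4.28 and 4.23 CPM. The groups again did not overlap, although the highest WT saline library came near the lowest WT dexamethasone library. The log2 rise at 3 h was 4.68 ± 0.627 SE in WT and 4.39 ± 0.629 SE in KO. At 24 h it was 2.84 ± 0.481 SE in WT and 3.39 ± 0.620 SE in KO. Leaving out KO saline 24 h replicate 3, the library with 0.81 CPM, moved the KO rise at 24 h to 4.28, and leaving out WT saline 24 h replicate 4, with 2.005 CPM, moved the WT rise at 24 h to 3.51. This WT library is the only saline library of a separate name series, whose meaning the labels do not give. By size of rise Pnmt stood 10 (WT) and 17 (KO) at 3 h, and 9 (WT) and 7 (KO) at 24 h.

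Ptprf, the LAR phosphatase, had the smallest rise of the 5 at 3 h. In WT at 3 h saline libraries held 5.47, 5.02 and 4.23 CPM and WT dexamethasone libraries 22.7, 24.8, 25.8, 18.2 and 22.4 CPM. KO saline libraries at 3 h held 5.30, 6.08 and 4.98 CPM and KO dexamethasone libraries 17.96, 19.2, 18.3, 20.7 and 18.2 CPM. Treated and control libraries were well apart in both genotypes. At 24 h WT saline libraries held 4.75, 4.93, 5.21 and 4.24 CPM and WT dexamethasone libraries 41.5, 34.0, 29.4, 31.6 and 32.2 CPM. KO saline libraries at 24 h held 4.81, 5.52 and 3.82 CPM and KO dexamethasone libraries 21.9, 20.2, 18.7, 16.2 and 25.1 CPM. Each WT dexamethasone library at 24 h was above each WT dexamethasone library at 3 h, while the KO ranges of the 2 times overlapped. The rise was 4.63-fold in WT (log2 2.21 ± 0.145 SE) and 3.46-fold in KO (log2 1.79 ± 0.141 SE) at 3 h. At 24 h it was 7.02-fold in WT (log2 2.81 ± 0.131 SE) and 4.34-fold in KO (log2 2.12 ± 0.147 SE). Its place by size of rise went from 97 at 3 h to 10 at 24 h in WT and from 190 to 32 in KO.

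Arl4d, the ARF-like GTPase, was high at 3 h only. Controls of WT at 3 h held 2.89, 2.70 and 3.55 CPM and WT dexamethasone libraries 52.4, 80.0, 54.3, 61.2 and 54.3 CPM. The KO controls at 3 h held 3.78, 3.26 and 3.56 CPM and KO dexamethasone libraries 61.7, 61.6, 48.1, 35.4 and 59.9 CPM. No treated library came near the controls at 3 h. At 24 h WT saline libraries held 3.52, 3.90, 3.02 and 5.01 CPM and WT dexamethasone libraries 4.57, 5.99, 2.51, 4.91 and 4.33 CPM. KO saline libraries at 24 h held 3.81, 3.50 and 3.63 CPM and KO dexamethasone libraries 4.20, 5.90, 3.401, 4.47 and 5.07 CPM. Treated and control libraries overlapped in both genotypes at 24 h. The rise was 19.8-fold in WT (log2 4.31 ± 0.238 SE) and 15.1-fold in KO (log2 3.92 ± 0.229 SE) at 3 h. At 24 h the difference was 0.22 ± 0.200 SE in WT and 0.33 ± 0.225 SE in KO on the log2 scale. By size of rise Arl4d stood 12 (WT) and 27 (KO) at 3 h, and 2326 (WT) and 1885 (KO) at 24 h.

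Odf3l2, the outer dense fibre relative, was also high at 3 h, and its saline level differed between genotypes. WT saline libraries at 3 h held 25.4, 15.1 and 13.5 CPM and WT dexamethasone libraries 237, 218, 256, 303 and 292 CPM. Saline libraries of KO at 3 h held 7.70, 4.22 and 3.87 CPM and KO dexamethasone libraries 224, 195, 187, 267 and 227 CPM. Treated and control libraries were far apart, and the saline libraries of the genotypes did not overlap either. At 24 h WT saline libraries held 42.9, 47.6, 14.8 and 33.6 CPM and WT dexamethasone libraries 36.6, 22.6, 15.1, 16.1 and 19.0 CPM. Saline libraries of KO at 24 h held 12.4, 3.37 and 6.95 CPM and KO dexamethasone libraries 19.3, 16.5, 20.9, 13.6 and 14.9 CPM. The WT groups overlapped at 24 h with the lower values after dexamethasone, while every KO dexamethasone library was above the KO saline libraries. The rise at 3 h was 14.5-fold in WT (log2 3.86 ± 0.394 SE) and 41.7-fold in KO (log2 5.38 ± 0.435 SE). At 24 h the log2 difference was -0.66 ± 0.304 SE in WT and 1.17 ± 0.367 SE in KO. By size of rise Odf3l2 stood 19 (WT) and 8 (KO) at 3 h, and 13027 (WT) and 110 (KO) at 24 h.

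**Figure D1:**
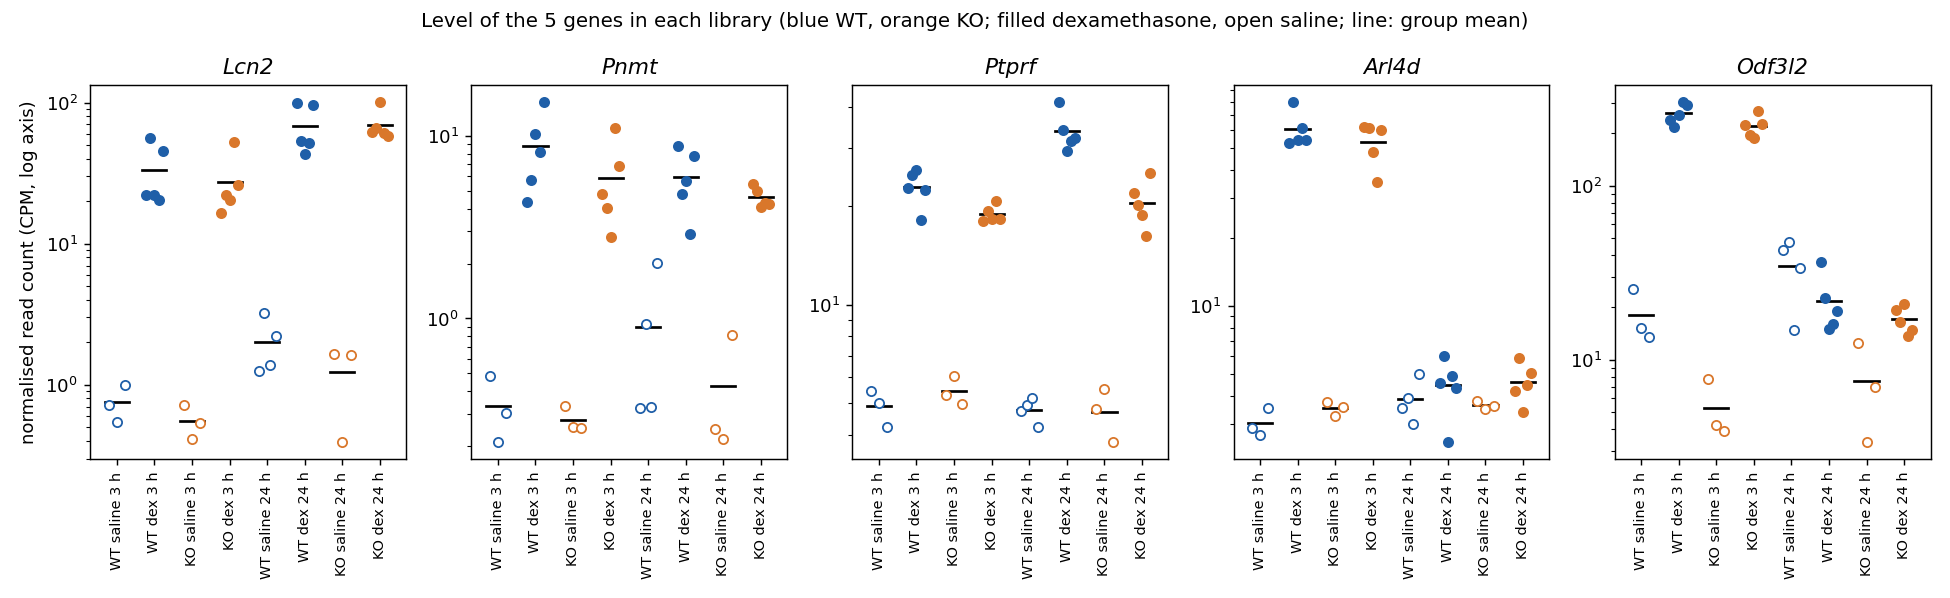
Normalised read count (CPM, log axis, a separate range in each panel) of each gene in each of the 33 libraries, by group, with lines at group means. Filled points are dexamethasone and open points saline libraries, blue WT and orange KO. Lcn2, Pnmt and Ptprf stayed above saline at 24 h, while Arl4d in WT dexamethasone libraries stood at 52.4 to 80.0 CPM at 3 h and at 2.51 to 5.99 CPM at 24 h.

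Measured per length, as reads per kilobase of exon scaled for library size (RPKM), Odf3l2 was the most abundant of the 5 after dexamethasone at 3 h, with a mean level of 209 ± 28.9 RPKM (SD, n = 5) in WT and 176 ± 25.5 RPKM (SD, n = 5) in KO. Arl4d followed with 43.7 ± 8.29 RPKM (SD, n = 5) in WT, then Lcn2 with 12.7 ± 6.31, Pnmt with 7.61 ± 3.75 and Ptprf with 2.49 ± 0.323 RPKM (SD, n = 5 each). The WT ranges of Lcn2 (7.83 to 21.5 RPKM) and Pnmt (3.77 to 13.3 RPKM) overlapped, and the other neighbours in this order did not. At 24 h in WT the order was Lcn2 at 26.2 ± 10.2 RPKM, Odf3l2 at 17.5 ± 7.01, Pnmt at 5.19 ± 2.05, Ptprf at 3.69 ± 0.508 and Arl4d at 3.23 ± 0.914 RPKM (SD, n = 5 each). Lcn2 thus took the first place at 24 h by its mean, with a range of 16.5 to 38.0 RPKM that overlapped the 12.1 to 29.4 RPKM of Odf3l2. The lengths count the exon bases of all annotated transcripts of a gene together. A gene read mostly from shorter transcripts is placed too low, so the order between genes depends on these lengths.

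Persistence was measured as the 24 h rise minus the 3 h rise, both on the log2 scale, and as the share of the rise in CPM at 3 h that was present at 24 h. For Lcn2 the difference of rises was -0.36 ± 0.742 SE in WT and 0.20 ± 0.880 SE in KO, each less than 1 SE from 0. Its rise in CPM at 24 h was 204% ± 59.1 SE of that at 3 h in WT and 255% ± 67.7 SE in KO. Mean saline levels of Lcn2 were also higher at 24 h, in WT from 0.754 ± 0.223 CPM (SD, n = 3) to 2.02 ± 0.912 CPM (SD, n = 4). Between dexamethasone libraries alone, Lcn2 was higher at 24 h than at 3 h by 1.04 ± 0.325 SE in WT and by 1.34 ± 0.328 SE in KO on the log2 scale. With the saline libraries of both times taken as 1 control per genotype, a choice made after seeing the data, the difference of rises for Lcn2 was 1.03 in WT and 1.35 in KO. The direction in WT therefore turned with the choice of control.

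Pnmt kept part of its rise. The difference of rises was -1.84 ± 0.843 SE in WT and -0.998 ± 0.996 SE in KO, and the share of the 3 h rise in CPM was 60.3% ± 19.2 SE in WT and 74.3% ± 19.8 SE in KO. In dexamethasone libraries alone the 24 h level differed from the 3 h level by -0.55 ± 0.356 SE in WT and -0.37 ± 0.367 SE in KO, and the ranges overlapped. With both saline times as 1 control the difference of rises was -0.56 in WT and -0.37 in KO. Without KO saline 24 h replicate 3 the KO value was -0.11, and without WT saline 24 h replicate 4 the WT value was -1.17.

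Ptprf was further above saline at 24 h than at 3 h. The difference of rises was 0.60 ± 0.186 SE in WT and 0.33 ± 0.195 SE in KO, and the share was 162% ± 17.0 SE in WT and 117% ± 12.8 SE in KO. Dexamethasone libraries at 24 h exceeded those at 3 h by 0.57 ± 0.108 SE in WT and by 0.11 ± 0.110 SE in KO on the log2 scale. With both saline times as 1 control the difference of rises was 0.56 in WT and 0.11 in KO.

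Arl4d and Odf3l2 lost nearly all of their rise in CPM, while on the log2 scale Odf3l2 in KO kept 21.8% of its 3 h rise. For Arl4d the difference of rises was -4.09 ± 0.300 SE in WT and -3.59 ± 0.309 SE in KO, and 1.04% ± 1.23 SE and 1.93% ± 0.885 SE of the rise in CPM was present at 24 h. For Odf3l2 the difference of rises was -4.52 ± 0.482 SE in WT and -4.21 ± 0.518 SE in KO, and the share was -5.28% ± 3.41 SE in WT and 4.41% ± 1.41 SE in KO. A negative share means that the WT dexamethasone mean at 24 h, 21.9 CPM, lay below the saline mean of 34.7 CPM.

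**Figure D2:**
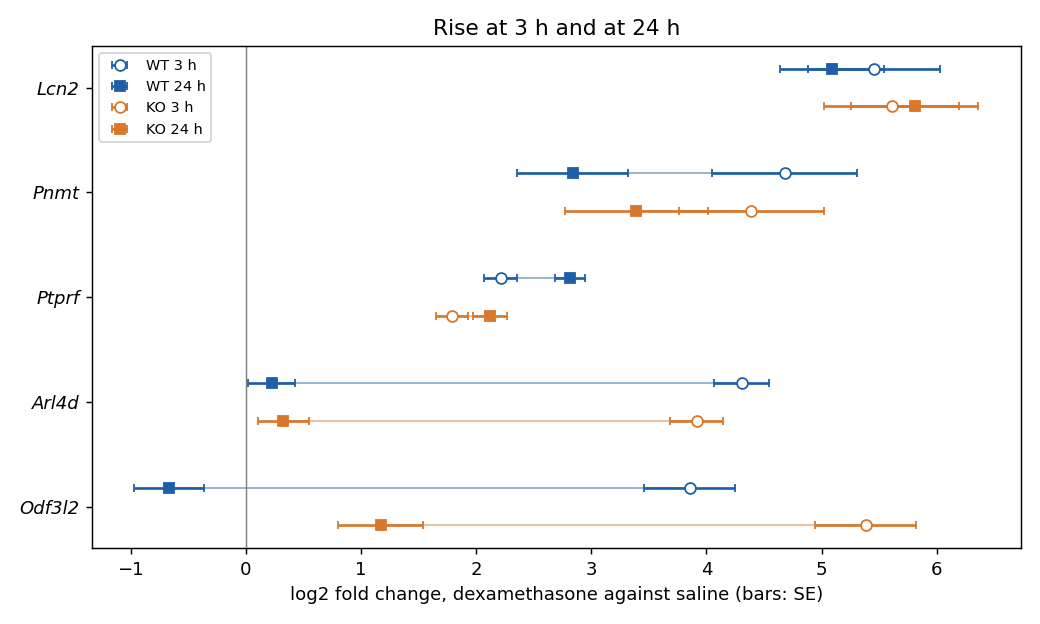
Log2 fold change of dexamethasone against saline for each gene at 3 h (open circles) and 24 h (filled squares), WT in blue and KO in orange, with bars of 1 SE. The Lcn2 points of the 2 times lie within their bars of each other, Ptprf moves right, and Arl4d and Odf3l2 change by between -4.52 and -3.59 log2 units.

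Set beside all genes with large early rises, the persistence of Lcn2, Pnmt and Ptprf was less common than the return of Arl4d and Odf3l2. In WT 119 genes were called higher at a false discovery rate of 0.05 and at least 4-fold higher at 3 h. At that time 6.76% of tested genes were called higher and 8.09% lower, and these shares, like those below, have no bound on the fold. Of the 119 genes, 24 (20.2%) were still called higher at 24 h at any fold, and 20 were called lower. Of all tested genes 6.75% were called higher and 6.92% lower at 24 h. The median log2 rise of the 119 genes went from 2.69 to 0.00. In KO 133 genes met the same bounds at 3 h, where 8.91% of tested genes were called higher and 8.48% lower. Of these, 28 (21.1%) were still called higher at 24 h, against 5.77% of tested genes called higher and 4.97% lower, and 2 were called lower. Their median log2 rise went from 2.84 to 0.22. All 5 genes were in the WT set and 4 in the KO set, where the 3.46-fold rise of Ptprf was under the bound. These counts describe the setting and test nothing about the 5 genes, which were chosen by the same contrasts.

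**Figure D3:**
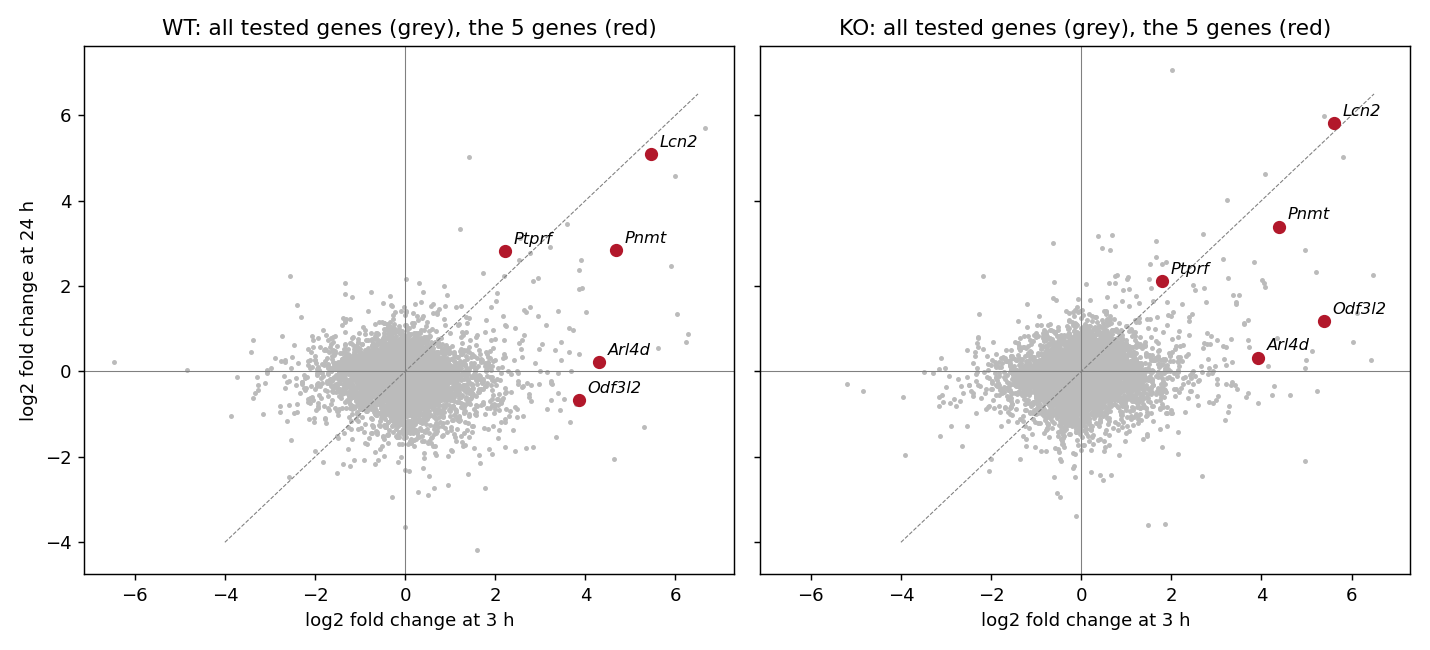
Log2 fold change at 24 h against that at 3 h for all 13955 tested genes (grey) and the 5 genes (red), WT on the left and KO on the right, with a dashed line where both are equal. Lcn2 lies near the line at log2 values over 5 in both genotypes, Ptprf and Pnmt lie above 2 at both times except for the KO rise of Ptprf at 3 h (1.79), and Arl4d and Odf3l2 lie near 0 on the 24 h axis in WT.

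The authors' deposited tables give their own log2 fold changes, whose contrast coding is not given in the sources used here. For Lcn2 the authors' deposited table lists 4.68 (WT) and 5.03 (KO) at 3 h, then 5.75 (WT) and 6.45 (KO) at 24 h. For Pnmt the authors' deposited table lists 4.12 and 4.03 at 3 h and 3.58 and 3.77 at 24 h, WT before KO. For Ptprf the authors' deposited table lists 2.22 and 1.91 at 3 h and 2.77 and 1.99 at 24 h. For Arl4d the authors' deposited table lists 4.15 and 3.86 at 3 h and 0.34 and 0.30 at 24 h. For Odf3l2 the authors' deposited table lists 3.47 and 5.23 at 3 h and -0.19 and 1.54 at 24 h. The same 3 genes stand above 1.9 at 24 h in the authors' values and in the fit used here. In WT the authors' Lcn2 values increase with time, whereas the fit used here gave 5.45 at 3 h and 5.09 at 24 h. In KO both increase, in the fit used here from 5.61 to 5.81, a change within 1 SE. With both saline times as 1 control the fit gave 4.49 in WT and 4.98 in KO at 3 h. For the change of the dexamethasone effect with time over both genotypes, the authors list 1.24 (Lcn2), -0.40 (Pnmt) and 0.32 (Ptprf). They list -3.69 for Arl4d and -3.67 for Odf3l2.

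Of the 5 genes, Odf3l2 and Ptprf differed between genotypes in the edgeR test. The levels compared also set the rises by which the genes were chosen, and the adjusted p-values do not account for that choice. In saline muscle Odf3l2 was lower in KO than in WT at both times, 5.27 ± 2.12 CPM (SD, n = 3) against 18.01 ± 6.44 CPM (SD, n = 3) at 3 h and 7.58 ± 4.56 CPM (SD, n = 3) against 34.7 ± 14.5 CPM (SD, n = 4) at 24 h. The difference was 3.42-fold at 3 h (log2 -1.77 ± 0.404 SE, edgeR quasi-likelihood test with Benjamini-Hochberg adjustment, adjusted p = 0.0192) and 4.56-fold at 24 h (log2 -2.19 ± 0.386 SE, edgeR adjusted p = 0.00151). No KO saline library overlapped the WT saline libraries of its time. At these times 1.46% and 2.97% of tested genes were called between genotypes in saline. With only the 2 groups compared in the fit, the log2 difference was -1.77 with an edgeR adjusted p of 0.0651 at 3 h and -2.18 with an adjusted p of 0.171 at 24 h, so neither call was made in that fit. At 3 h the call was also lost without KO saline replicate 2 (log2 -1.64, edgeR adjusted p = 0.140), KO saline replicate 3 (log2 -1.59, adjusted p = 0.124) or WT saline replicate 1 (log2 -1.44, adjusted p = 0.167), while at 24 h no left-out library ended it.

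After dexamethasone no genotype difference of Odf3l2 was called, with log2 differences of -0.25 ± 0.279 SE at 3 h (edgeR adjusted p = 0.777) and -0.35 ± 0.292 SE at 24 h (edgeR adjusted p = 0.572). The KO rise exceeded the WT rise by 1.53 ± 0.488 SE at 3 h and by 1.84 ± 0.476 SE at 24 h on the log2 scale. These rises share their saline libraries with the saline comparison, so the values are not independent of it.

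Ptprf did not pass the test between genotypes in saline, with log2 differences of 0.15 ± 0.159 SE at 3 h (edgeR adjusted p = 0.785) and -0.03 ± 0.153 SE at 24 h (edgeR adjusted p = 0.945). After dexamethasone at 3 h the KO level was 18.9 ± 1.12 CPM (SD, n = 5) against 22.8 ± 2.95 CPM (SD, n = 5) in WT, a log2 difference of -0.27 ± 0.109 SE that missed the threshold (edgeR adjusted p = 0.208). At 24 h Ptprf was 1.65-fold lower in KO, 20.4 ± 3.35 CPM (SD, n = 5) against 33.7 ± 4.65 CPM (SD, n = 5), a log2 difference of -0.72 ± 0.109 SE (edgeR adjusted p = 4.65e-05). All 5 KO libraries were below all 5 WT libraries. Between genotypes 2.95% of tested genes were called at 3 h and 5.03% at 24 h after dexamethasone. The rise of Ptprf was smaller in KO by 0.42 ± 0.193 SE at 3 h and by 0.69 ± 0.187 SE at 24 h on the log2 scale.

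Lcn2, Pnmt and Arl4d did not pass the test between genotypes in any of the 4 comparisons. The closest was Pnmt after dexamethasone at 3 h, with 5.91 ± 3.21 CPM (SD, n = 5) in KO and 8.78 ± 4.32 CPM (SD, n = 5) in WT, a log2 difference of -0.57 ± 0.356 SE (edgeR adjusted p = 0.512). For Lcn2 after dexamethasone at 24 h the means were 69.7 ± 17.8 CPM (SD, n = 5) in KO and 68.7 ± 26.7 CPM (SD, n = 5) in WT, a log2 difference of 0.02 ± 0.320 SE (edgeR adjusted p = 0.981). Arl4d differed by -0.18 ± 0.156 SE at 3 h and by 0.04 ± 0.185 SE at 24 h after dexamethasone (edgeR adjusted p = 0.680 and 0.947). The KO rise minus the WT rise of these 3 genes ranged from -0.39 for Arl4d at 3 h to 0.72 for Lcn2 at 24 h, with standard errors of 0.298 and 0.689.

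**Figure D4:**
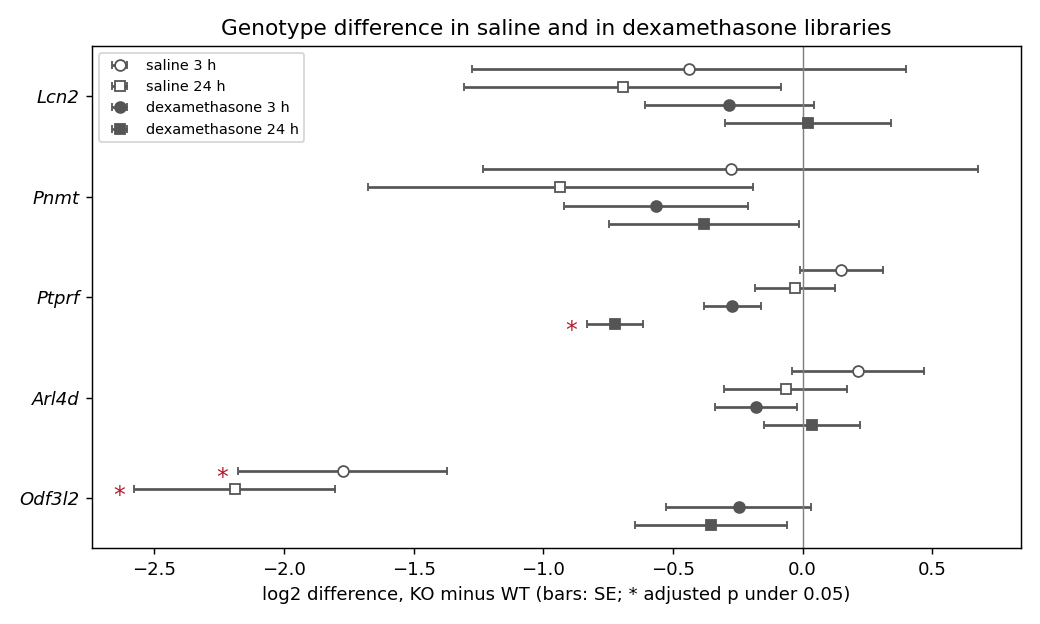
Log2 difference of KO minus WT for each gene in saline (open) and dexamethasone (filled) libraries at 3 h (circles) and 24 h (squares), with bars of 1 SE and stars at an adjusted p under 0.05. The stars mark Odf3l2 in saline at both times and Ptprf after dexamethasone at 24 h.

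Saline levels were compared between the times because they set the base of each rise. The edgeR test called 0 of the 5 genes, and no other tool or setting called any, in WT where 0.566% of tested genes were called or in KO where 0.0287% were called. Lcn2 was higher at 24 h than at 3 h by 1.400 ± 0.659 SE on the log2 scale in WT (edgeR unadjusted p = 0.0431, adjusted p = 0.330), without overlap of the libraries, and by 1.14 ± 0.775 SE in KO (edgeR adjusted p = 0.773). Odf3l2 was at 0.94 ± 0.358 SE in WT (edgeR unadjusted p = 0.0140, adjusted p = 0.230). Pnmt was at 1.29 ± 0.767 SE in WT (edgeR adjusted p = 0.441). Ptprf and Arl4d differed by -0.03 ± 0.151 SE and 0.32 ± 0.239 SE in WT (edgeR adjusted p = 0.940 and 0.533).

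Markers of other cells in which these genes are well known were read beside the rises. Neutrophils store lipocalin 2, and 11 of 12 neutrophil markers are in the files with 6 tested. Their summed level ran from 1.86 to 3.13 CPM in WT saline and from 1.41 to 12.6 CPM in WT dexamethasone libraries at 3 h, and from 1.51 to 8.64 CPM in WT saline and from 1.72 to 11.2 CPM in WT dexamethasone libraries at 24 h. In KO the sums ran from 1.85 to 2.39 CPM in saline and from 1.60 to 7.45 CPM in dexamethasone libraries at 3 h, and from 0.745 to 3.31 CPM in saline and from 1.66 to 5.02 CPM in dexamethasone libraries at 24 h. Mpo was at 0 in all libraries of 6 of the 8 groups, and Camp in 5. Mmp8, a neutrophil collagenase, was the 1 marker called, higher at 3 h by 2.53 ± 0.850 SE in WT (edgeR adjusted p = 0.0415) and by 4.99 ± 1.21 SE in KO (edgeR adjusted p = 0.00337), at no more than 2.48 CPM. The medians of the 6 tested markers were 1.88 (WT) and 1.61 (KO) at 3 h and 0.10 (WT) and 0.28 (KO) at 24 h on the log2 scale. Medians of all tested genes lay between -0.01 and 0.01. The part of neutrophils in the Lcn2 values was not tested.

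Chromaffin cells of the adrenal medulla and sympathetic neurons are the cells known for the steps before Pnmt. All 9 of their markers are in the files and 2 were tested. Dbh reached at most 2 raw counts and Th at most 6 in a library, and Dbh and Th encode the enzymes that supply noradrenaline. The summed markers stood between 3.74 and 4.92 CPM in saline and between 8.09 and 14.6 CPM in dexamethasone libraries at 3 h, and were between 2.39 and 6.93 CPM in all libraries at 24 h. The called marker was Cyb561, a cytochrome of secretory vesicles, higher at 3 h by 1.42 ± 0.280 SE in WT (edgeR adjusted p = 0.000326) and by 1.59 ± 0.280 SE in KO (edgeR adjusted p = 7.99e-05), and its part in the Pnmt values was not tested. Epithelial markers, of which 9 of 9 are in the files and 3 tested, summed to between 0.417 and 2.11 CPM in all libraries with Krt5 or Krt14 at 0 in each group. The edgeR test called 0 of the 3, with 1 lower at an unadjusted p under 0.05 in WT at 3 h and 0 in the other comparisons, while DESeq2 called 0 and limma-voom called 1, lower in WT at 3 h.

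Relatives and partners of each gene were taken as lists, each read against the share of all tested genes called, which was 6.76% higher and 8.09% lower (WT) and 8.91% and 8.48% (KO) at 3 h, and 6.75% and 6.92% (WT) and 5.77% and 4.97% (KO) at 24 h. Of 20 tested genes of the lipocalin and acute phase list, 6 were called higher and 1 lower in WT at 3 h, 6 and 0 in KO at 3 h, 8 and 0 in WT at 24 h and 5 and 0 in KO at 24 h. The list medians were 0.02, 0.29, 0.12 and 0.25 on the log2 scale in that order, beside medians of all tested genes between -0.01 and 0.01. Slc40a1, the iron exporter ferroportin, was called higher at 24 h by 1.33 ± 0.116 SE in WT (edgeR adjusted p = 1.60e-09) and 1.31 ± 0.129 SE in KO (edgeR adjusted p = 3.09e-08) and not at 3 h, where it was at -0.26 and -0.15. Serpina3m, a serine protease inhibitor of the acute phase family, rose at both times, by 3.86 ± 0.535 SE and 1.93 ± 0.560 SE in WT and by 6.47 ± 0.690 SE and 2.27 ± 0.640 SE in KO, and it belongs to a family of close copies whose reads can be split. Il6ra and Il1r1, receptors of interleukin 6 and interleukin 1, rose at 3 h by 2.12 ± 0.229 SE and 1.02 ± 0.166 SE in WT and by 2.14 ± 0.229 SE and 1.405 ± 0.170 SE in KO, and were between -0.11 and 0.29 at 24 h.

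Of 16 tested genes of catecholamine synthesis, transport and reception, 2 were called higher and 3 lower at 3 h in WT, and likewise 2 and 3 in KO. The shares of all tested genes were 6.76% and 8.09% in WT and 8.91% and 8.48% in KO. Beside these shares, counts this small are not a result about the list. At 24 h the edgeR test called 0 of 16 in either genotype. At an unadjusted p under 0.05 in edgeR 2 were higher and 0 lower in WT at 24 h and 1 higher and 2 lower in KO. DESeq2 called 0 in either genotype and limma-voom 0 in WT and 1, lower, in KO. The list medians were -0.17 and -0.09 at 3 h and -0.11 and -0.06 at 24 h, WT before KO. Adrb3, the beta-3 adrenoceptor known from fat cells, fell by 3.27 on the log2 scale in WT and by 1.82 in KO at 3 h (SE 0.332 and 0.336), and 24.9% of its exon bases overlap a gene on the other strand, whose reads cannot be told apart in an unstranded library. Slc6a2, the noradrenaline transporter, fell at 3 h by 1.89 in WT and 1.96 in KO (SE 0.319 and 0.317). Adra2a, an alpha-2 adrenoceptor, fell at 3 h by 1.95 in KO (SE 0.317) and was at -0.93 in WT without passing the test (edgeR adjusted p = 0.0575). Adipocyte markers, 9 of 9 tested, summed at 3 h to between 315 and 889 CPM in WT dexamethasone and between 433 and 836 CPM in WT saline libraries. In KO they summed to between 422 and 651 CPM after dexamethasone and between 314 and 403 CPM in saline, without overlap. In WT 1 marker, Plin1, was called lower by edgeR, and in KO 2, Cidec and Thrsp, were called higher by edgeR and 4 by DESeq2 and by limma-voom. Adrb3 was lower after dexamethasone in both genotypes, and the part of fat cells in that change was not tested.

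Among 18 tested relatives and partners of the LAR phosphatase, 1 was called higher and 3 lower in WT at 3 h, 0 and 3 in KO at 3 h, 3 and 2 in WT at 24 h, and 2 and 1 in KO at 24 h, with medians of -0.06, -0.28, 0.13 and -0.15. Beside the shares of all tested genes, which lay between 4.97% and 8.91% in either direction, counts this small are not a result about the list. Ptprs, another LAR family phosphatase, fell at 24 h by 0.66 on the log2 scale in WT (SE 0.128) and by 0.92 in KO (SE 0.137), opposite to Ptprf. Insr, the insulin receptor, rose at 24 h by 0.60 ± 0.103 SE in WT and 0.46 ± 0.112 SE in KO. Met, the receptor of hepatocyte growth factor, fell at 3 h by 0.64 in WT and 0.43 in KO (SE 0.100 each). Jup, encoding plakoglobin, rose in WT at 3 h by 0.81 ± 0.141 SE and was at 0.35 in KO (edgeR adjusted p = 0.0775).

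Of the 18 tested genes around Arl4d and Arf6, 3 were called higher and 2 lower in WT at 3 h, 3 and 3 in KO at 3 h, 1 and 2 in WT at 24 h, and 2 and 1 in KO at 24 h, with medians of 0.12, 0.08, 0.02 and 0.02. The same shares of all tested genes, 4.97% to 8.91%, stand beside these counts, which are likewise not a result about the list. Arl4c, a relative of Arl4d, fell at 3 h by 1.24 in WT and 1.47 in KO (SE 0.253 and 0.252) while Arl4d rose. Arl4a rose in KO at 3 h by 0.67 ± 0.121 SE and was at 0.32 in WT (edgeR adjusted p = 0.0669). Of the cytohesins, Cyth3 rose at 3 h by 0.71 ± 0.140 SE in WT and 0.76 ± 0.139 SE in KO, and Cyth4, known from blood cells, fell by 1.28 and 1.32 (SE 0.187 and 0.185). For the outer dense fibre list 6 of 13 genes were tested, of which 1, Odf3l1, was called, lower in WT at 3 h by -2.59 ± 0.521 SE. It was at -1.56 in KO (edgeR adjusted p = 0.0762), and the list medians were -0.24 and -0.12 at 3 h and 0.09 and 0.01 at 24 h.

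Most of the 24 textbook glucocorticoid receptor targets were called higher at 3 h and few at 24 h. At 3 h 20 were called higher and 0 lower in each genotype, beside 6.76% (WT) and 8.91% (KO) of all tested genes called higher, and the medians were 1.35 (WT) and 1.32 (KO). The list is of known targets of the hormone given. At 24 h 6 were called higher and 6 lower in WT and 4 and 4 in KO, beside 6.75% and 6.92% (WT) and 5.77% and 4.97% (KO) of all tested genes, with medians of -0.08 and -0.21. Nfkbia, the inhibitor of NF-kB, rose at 3 h by 2.98 ± 0.183 SE in WT and 3.01 ± 0.184 SE in KO and was at -0.30 and -0.28 at 24 h. Errfi1, an inhibitor of EGF receptor signalling, rose by 2.88 ± 0.202 SE and 2.84 ± 0.202 SE and was at 0.20 and 0.09 at 24 h. Fam107a, an actin-associated protein, rose at 3 h and fell at 24 h, by 1.77 in WT and 1.13 in KO on the log2 scale (SE 0.156 and 0.183). Hif3a, a hypoxia-inducible factor subunit, rose at 3 h and fell at 24 h in WT by 1.56 (SE 0.212), and was at -0.71 in KO (edgeR adjusted p = 0.0826).

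By Pearson correlation of log2 CPM over the 33 libraries, a description across libraries that share groups, the genes closest to each of the 5 were taken from 11409 genes. Lcn2 was closest to Ptprf (r = 0.933), Pnmt (r = 0.929), Lrg1 (r = 0.925) and Anapc16 (r = 0.915). Lrg1 encodes a secreted leucine-rich glycoprotein and Anapc16 a subunit of the anaphase-promoting complex. Lrg1 rose at 3 h by 1.90 in WT and 1.69 in KO, and by 1.51 and 1.28 at 24 h on the log2 scale. Pnmt was next closest to Fkbp5, Anapc16, Car9 and Serpina3n, and Fkbp5, a chaperone of the glucocorticoid receptor, rose by 2.18 and 2.52 at 3 h and by 1.30 and 1.91 at 24 h. Ptprf was next closest to Cdkn1a, a cell cycle inhibitor, with rises of 2.78 and 2.71 at 3 h and 2.77 and 3.22 at 24 h, and then to Rhbdf1, Pnmt and Eci2. Lcn2 was thus the first gene for both Pnmt and Ptprf.

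Arl4d was closest to Rnf169 (r = 0.981), Tiparp (r = 0.975), Nfkbia, Sox4 and Errfi1, all high at 3 h by 2.84 or more on the log2 scale and between -0.30 and 0.75 at 24 h. Sox4 shares 54.6% of its exon bases with a gene on the other strand. Odf3l2 was closest to Tgm2 (r = 0.939), Tpst2 (r = 0.924), Nfkbia (r = 0.922), Dpep1 and Hpcal1, and 21.8% of the Tgm2 exon bases overlap genes on the other strand. Tgm2, the tissue transglutaminase, rose at 3 h by 1.53 in WT and 1.43 in KO, and was at 0.21 and 0.37 at 24 h.

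Whether the genes also varied together among libraries of 1 group was tested, since the choice of the genes did not use that spread. Over the 20 dexamethasone libraries, with group means removed, none of 10 pairs passed Benjamini-Hochberg adjustment. The largest value was that of Pnmt and Odf3l2, with Pearson r = 0.581 (two-sided permutation p = 0.00827, adjusted permutation p = 0.0827) and Spearman rho = 0.570 (permutation p = 0.0141, adjusted permutation p = 0.141), and r = 0.545 without the 2 libraries farthest from the median. Lcn2 and Pnmt gave r = 0.510 (adjusted permutation p = 0.235) and rho = 0.445 (adjusted permutation p = 0.310). Over the 13 saline libraries, added after seeing the data, r ran from -0.61 for Lcn2 and Ptprf to 0.68 for Pnmt and Arl4d, and the lowest adjusted permutation p was 0.145. The pairs that stayed high together over time were therefore not shown to vary together among libraries of a group.

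**Figure D5:**
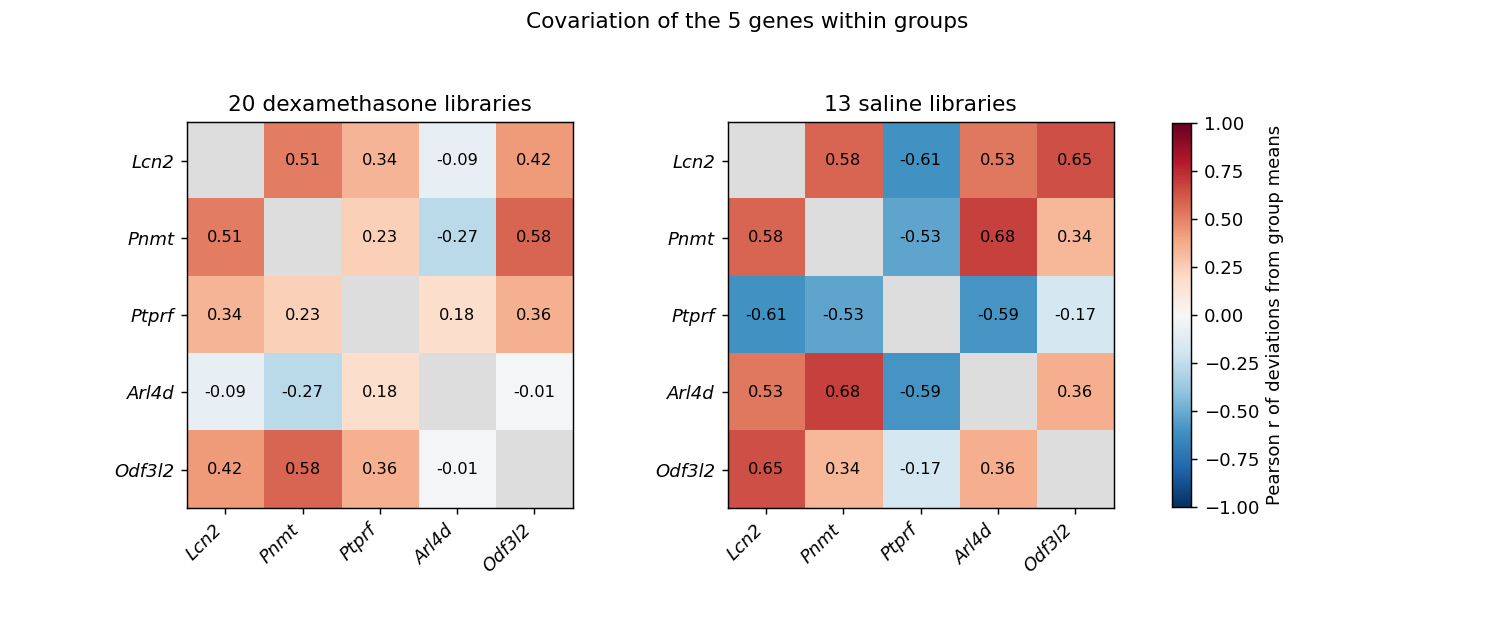
Pearson r of deviations from the group means for each pair of genes over 20 dexamethasone libraries (left) and 13 saline libraries (right), on a colour scale from -1 to 1. The largest r after dexamethasone is that of Pnmt and Odf3l2 (0.58), and no pair passed the adjusted permutation test.

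Genes next to the 5 were read beside them. Of 23 neighbours 15 are in the files and 14 were tested, and 6 of the 14 were called in at least 1 of the 4 dexamethasone comparisons, where 35.0% of all tested genes were. Pnmt lies 1670 bases from Tcap, the gene of the Z-disc protein telethonin that stood between 1478 and 2630 CPM, and 492 bases from Pgap3, a gene of lipid anchor remodelling. Tcap rose at 3 h by 0.57 ± 0.143 SE in WT and 0.55 ± 0.143 SE in KO, and Pgap3 by 1.81 ± 0.254 SE and 1.18 ± 0.246 SE. At 24 h Tcap was at -0.13 and 0.10 and Pgap3 at 0.42 and 0.37 without a call, while Pnmt was still higher by 2.84 and 3.39. Stard3, a cholesterol transfer protein gene on the other side of Tcap, rose at 3 h by 0.38 ± 0.127 SE and 0.39 ± 0.127 SE. Kdm4a, a histone demethylase gene 28123 bases from Ptprf, rose at 3 h by 0.81 ± 0.106 SE and 0.69 ± 0.105 SE, and was not called at 24 h.

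Odf3l2 lies 1608 bases from Shc2, an adaptor protein gene, and 25501 bases from C2cd4c. Shc2 was lower in KO than in WT in saline at 3 h by -1.48 ± 0.213 SE (edgeR adjusted p = 5.76e-05) and at 24 h by -1.51 ± 0.205 SE (edgeR adjusted p = 2.35e-05), as Odf3l2 was. It was also lower in KO after dexamethasone, by -1.005 ± 0.158 SE at 3 h (edgeR adjusted p = 0.000124) and by -1.03 ± 0.165 SE at 24 h (edgeR adjusted p = 0.000118), where Odf3l2 was not called. Of the 14 tested neighbours Shc2 was the only one called between genotypes in any of the 4 comparisons, where 7.96% of all tested genes were called in at least 1. C2cd4c rose at 3 h by 1.22 ± 0.362 SE in WT and 1.06 ± 0.322 SE in KO and fell in WT at 24 h by 1.13 on the log2 scale (SE 0.365), where Odf3l2 was at -0.66, and it was at -0.61 in KO at 24 h without a call.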

How the data were processed

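Quadriceps RNA was made into libraries with an unstranded TruSeq kit, per the labels' protocols. The authors deposited raw read counts per gene symbol, 1 file per library, and tables of log2 fold changes. Tools listed in the submitters' processing notes are STAR, HTSeq (both without version) and limma 3.40.6, with the mm10 build. Annotation, strand setting and contrast coding: not given in the sources used here.

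The 2 lines that name no gene held 24.6 to 33.2% (no feature) and 0.188 to 0.300% (ambiguous) of reads and were left out. Of 23420 genes 13955 passed filterByExpr of edgeR 4.0.16 (R 4.3.3) with the 8 groups. After TMM scaling, 1 robust quasi-likelihood model with 8 group means took in the 33 libraries, with Benjamini-Hochberg adjustment over all tested genes at a false discovery rate of 0.05. DESeq2 1.42.0 and limma-voom (limma 3.58.1) were alternatives. The closest pair within a group had a chi-square per degree of freedom of 11.5, so no library was taken as deposited again. Replicate numbers follow listing order. The labels leave unsaid whether libraries are separate animals, so p-values measure the spread between libraries. Within-group correlations used log2 CPM (prior count 2) and 100000 permutations within groups. The test was checked on simulated counts. The 5 genes and all lists were chosen with earlier results of these data known. Other genes named are up to 4 called genes of each list by smallest p, the 5 genes most like each, annotated neighbours and Actn3. Some genes that this rule names are not reported here. Mmp8, Cyb561, Plin1, Cidec and Thrsp were named after their values were seen. Depth limits the precision of Pnmt and Lcn2 in saline libraries.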

Additional observations from a re-analysis of the deposited data

Results flagged for a closer look

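Each group of 4 or 5 libraries was looked at for a library standing apart from the others in the level of each of the 5 genes, which gave 25 groups, of which 2 were flagged. Chance flags about 1 in 20 groups. Lcn2 in KO dexamethasone 24 h replicate 3 was at 101 CPM, where the other libraries of the group lay at 58.0 to 66.3 CPM. Lcn2 in KO dexamethasone 3 h replicate 4 was at 52.4 CPM, where the other libraries of the group lay at 16.4 to 25.9 CPM. Without replicate 4 the KO rise of Lcn2 at 3 h was 5.23 on the log2 scale in place of 5.61. The summed neutrophil markers also varied among libraries of these groups, from 1.66 to 5.02 CPM at 24 h and from 1.60 to 7.45 CPM at 3 h. The flagged libraries held the highest S100a8 and S100a9 of their groups, 1.08 and 1.52 CPM at 3 h and 1.03 and 1.13 CPM at 24 h. Mmp8 was also highest in them at both times, Retnlg at 3 h only, and Csf3r and Cxcr2 at 24 h only. The other markers in the files held at most 2 counts in these groups. The part of neutrophils in the flagged Lcn2 values was not tested.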

How the results depend on the processing

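No paired analysis was possible because no label numbers the libraries of a group. Scaling by DESeq2 size factors or library totals turned no rise. With library totals alone 33.2% of the genes called at 3 h in WT were higher, against 45.5% with TMM, 38.7% against 49.4% at 24 h in WT, and 33.8% against 43.6% for KO against WT in saline at 3 h. Neither the glucocorticoid palindrome core nor its single arm was found as exact letters in the 3 promoters. The cause of the changes below was not tested.

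Counts of called genes moved as follows. With limma-voom they were 3234 (WT, 3 h), 3001 (WT, 24 h), and for KO against WT 1221 (saline 3 h), 873 (dexamethasone 3 h) and 1480 (dexamethasone 24 h), and 344 and 60 for saline between times in WT and KO. With DESeq2 they were 342 and 730 for KO against WT in saline at 3 h and 24 h, and 205 and 26 for saline between times. With only the compared groups in the fit they were 738 (KO, 24 h), 965 and 122 (KO against WT, saline), 291 (dexamethasone 24 h), and 31 and 32 (saline times). Without the low count filter edgeR called 0 between saline times in KO. Without the 5 libraries of a separate name series they were 783 and 1063 for KO against WT after dexamethasone and 51 for saline times in WT, while Ptprf after dexamethasone at 24 h (-0.75, edgeR adjusted p = 0.000195) and Odf3l2 in saline at 24 h (-2.19, adjusted p = 0.00773) kept their calls. With both saline times as 1 control 3146 were called in KO at 24 h.

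With 1 library left out in turn the counts ran from 1474 to 2867 (KO, 3 h), 1228 to 2246 (WT, 24 h) and 768 to 1558 (KO, 24 h). For KO against WT they ran from 72 to 172 and 99 to 664 in saline and from 437 to 1167 after dexamethasone at 24 h, and for saline times from 8 to 210 in WT and 0 to 2 in KO. Odf3l2 between genotypes in saline at 3 h ran from -2.16 to -1.44. The rise of Pnmt in KO at 24 h ran from 3.10 to 4.28, and its change with time in KO from -1.30 to -0.11. The KO rise of Pnmt minus its WT rise at 24 h ran from -0.12 to 1.44.

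With only the groups compared, Odf3l2 between genotypes in saline was -1.77 at 3 h and -2.18 at 24 h without a call. With both saline times as 1 control the 3 h rises were 4.49 (Lcn2), 3.81 (Pnmt) and 3.25 (Odf3l2) in WT and 4.98 (Lcn2) in KO, and the changes with time 1.03 (Lcn2), -0.56 (Pnmt) and -3.59 (Odf3l2) in WT and 1.35 (Lcn2), -0.37 (Pnmt) and 0.11 (Ptprf) in KO.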
